A study of Homo sapiens with 5 samples.

Results

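Amino acid and osmolyte transporters are described here across 5 populations of MIAPaCa2 (MP2) cells, an established line of human pancreatic ductal adenocarcinoma (PDAC). They were chosen with earlier results of these data known. The group was defined by gene symbol, as every gene named SLC1A, SLC3A, SLC6A, SLC7A, SLC36A, SLC38A or SLC43A followed by digits. It held 56 of the 19775 genes with a probe set of their own on the array, measured by 138 of 54613 probe sets. A probe set is a group of short probes read as 1 value, and of several the brightest on average across the 5 arrays was taken for the gene. Of the 56 genes, 20 had 1 probe set and 36 had several. The study asked how collagen-binding α2β1 integrin, which these cells lack, alters gene expression and invasion, and hybridized RNA of each population to 1 Affymetrix array. No array had a replicate, so no difference below carries an error or a p-value.

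All 5 populations were stably transfected and kept under drug selection. MP2-mock cells carried no integrin construct and grew in standard culture. Full-length α2 integrin was expressed from a cytomegalovirus promoter in a population selected with zeocin and panned once on collagenI. Part of it then grew in standard culture (MP2-α2/TC) and part (MP2-α2/CI) on plates coated with 25 µg/mL collagenI. MP2-α2Δ cells expressed α2 without its cytoplasmic domain, also under zeocin, and were kept on 25 µg/mL collagenI. MP2-α9α2 cells expressed a chimera of α9 and α2 integrin sequence, under G418, on 10 µg/mL of the FNIII fragment of tenascin. The last 2 populations therefore differ in construct, substrate and drug at once, which cannot be told apart. The prefix MP2- is left out below.

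The transporters carry amino acids, and in a few cases betaine, taurine or creatine, across the plasma or lysosomal membrane. Some work alone, and others as pairs of a glycosylated heavy chain and a transporting light chain. Cells scarce in amino acids are known to raise many of them through the transcription factor ATF4, which binds C/EBP-ATF composite elements. Cells in hypertonic medium are known to raise the osmolyte carriers through the transcription factor NFAT5. Pancreatic cancer cells are known for heavy use of glutamine, much of which enters through this group.

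Values are on a log2 scale and are given in the order mock, α2/TC, α2/CI, α2Δ and α9α2. The first 3 arrays shared a minimum of 2.24 and the last 2 arrays a minimum of 2.21, so the arrays were taken to have been normalized in 2 sets, and differences are read within a set. Each array's floor, set so that 95 in 100 of its odorant receptor probe sets lie at or under it, lay between 2.21 and 2.27. Among 19741 probe sets over 4 on all arrays, 36.1% held the same value in α2/TC as in mock to within 1e-06, as did 13 of the 36 transporter probe sets among them (36.1%). Between α2Δ and α9α2 the shares were 10.9% and, with 3 of 36, 8.33%. The sources used here do not say how these identical values arose, and a difference of 0 is not read as a measurement of no change. KRT8, KRT18, KRT19 and VIM read between 11.7 and 15.9 on every array, whereas the epithelial markers EPCAM, CDH1 and KRT7 lay at or near the floor. Of the 3 mesenchymal markers, VIM and ZEB1 exceeded 4 on at least 1 array, and CDH2 did not on any. Of the exocrine pancreas, islet, blood and endothelial markers, 0 exceeded 4 on any array. The fibroblast markers COL1A1 and COL1A2 did exceed 4, while COL3A1, DCN and LUM lay at the floor. Of 4 neuron markers 1, SYT1, exceeded 4, and it was lower in α2/CI (6.09) than in mock (7.93) and α2/TC (7.83). ITGA2, the α2 gene, read 2.24 on each array of the first set and 3.28 and 7.28 by its 2 probe sets in α2Δ cells. According to the study's text, the construct lacks the sequence that the array's α2 probes read, so these values check no label. The text also states that the array analysis found no α2 in its cells, whereas α2Δ cells read 7.28 here by 1 probe set. The source of the signal in α2Δ cells was not tested. ITGA9, the α9 gene, was at the minimum of the array by every probe set, also in α9α2 cells.

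In these cells 32 of the 56 transporters lay above the floor on all 5 arrays, 7 on some and 17 on none. A value over 4 was reached by 28 on at least 1 array and by 21 on all 5. Those 21 included the general importers and exchangers of neutral amino acids (SLC1A4, SLC1A5, SLC38A1, SLC38A2, SLC38A4, SLC7A5, SLC7A6, SLC7A8), the heavy chain SLC3A2, the cationic carrier SLC7A1, the cystine carrier SLC7A11, the taurine carrier SLC6A6 and the creatine carrier SLC6A8. Most neurotransmitter carriers were low. SLC6A13 reached 4.90 in the second set by its brighter probe set alone, and SLC6A11 at most 3.49. The noradrenaline, dopamine, serotonin and glycine carriers SLC6A2, SLC6A3, SLC6A4, SLC6A5 and SLC6A9 lay between 2.21 and 2.69 on every array. Levels of different genes were read by different probes and are not compared with each other.

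**Figure D1:**
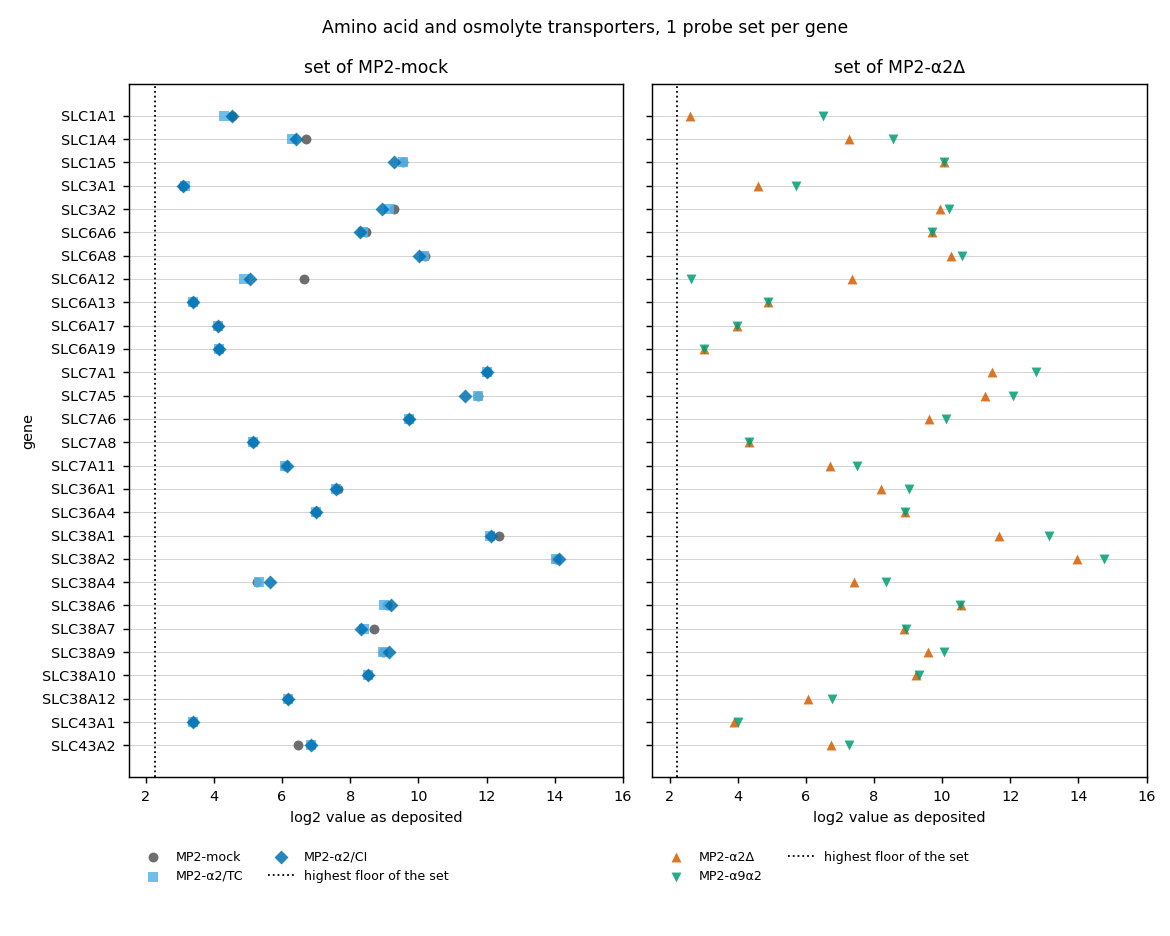
Log2 values as deposited (x axis) of the 28 transporters over 4 on at least 1 array (y axis, 1 probe set per gene), with 1 point per array and the highest floor of each normalization set as a dotted line. In the left panel the points of mock, α2/TC and α2/CI mostly lie on each other except for SLC6A12, while in the right panel α9α2 lies to the right of α2Δ for many genes and far to its left for SLC6A12.

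The betaine and GABA carrier SLC6A12 was the transporter that differed most within both sets of arrays. It read 6.64 in mock, 4.87 in α2/TC and 5.06 in α2/CI cells. Both populations with full-length α2 were thus lower than mock, by 3.41-fold (log2 difference -1.77) and 2.99-fold (log2 difference -1.58), and the step from α2/TC to α2/CI was 0.19. SLC6A12 read 7.35 in α2Δ and 2.63 in α9α2 cells, a log2 difference of 4.73 or 26.4-fold. The α9α2 value lies close to the floor of 2.21. In RNA of a whole population, fewer expressing cells and less RNA per cell cannot be told apart. SLC6A12 has 1 probe set on the array, so no second probe set bears on these values. Both comparisons with mock share its array, on which SLC6A12 was the high value of the set.

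The other osmolyte carriers did not share this pattern. SLC6A6, which imports taurine, read 8.47, 8.36 and 8.29 in the first set and 9.71 in both α2Δ and α9α2 cells. SLC6A8, which imports creatine, read 10.21, 10.16, 10.02, 10.27 and 10.58, and its 3 probe sets differed in direction between α2Δ and α9α2, from -0.30 to 0.40. SLC5A3, a myo-inositol carrier outside the group, read 10.86, 11.05 and 11.24 in the first set and was higher in α2Δ (12.26) than in α9α2 cells (11.56). NFAT5 itself read 11.05, 11.07, 11.21, 12.71 and 12.20, a log2 difference of 0.50 between the last 2 arrays. Over the 10 genes of the osmotic stress list above the floor, the median difference of α2Δ over α9α2 was 0.30. SLC6A12 was the 1 gene of these at least 2-fold apart, where 10.1% of all genes were higher and 4.97% lower by as much.

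Genes beside SLC6A12 on the chromosome did not show its differences. SLC6A13, the next gene and a GABA carrier of the same family, read 3.38 on all 3 arrays of the first set and 4.90 on both of the second. That probe set is marked in the array's nomenclature as matching several transcripts, and the other one of SLC6A13 did not pass the floor on any array. KDM5A, the gene after it, read 9.38, 9.27, 9.27, 9.82 and 9.82. On the other side IQSEC3 lay near the floor, at 2.43 on the first 3 arrays and 2.24 on the last 2. The antisense transcript SLC6A12-AS1 read at most 2.29 on any array. Within each set none of these 4 differed by 2-fold. Equal values recurred here as they did elsewhere, and are not a measurement of sameness.

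**Figure D2:**
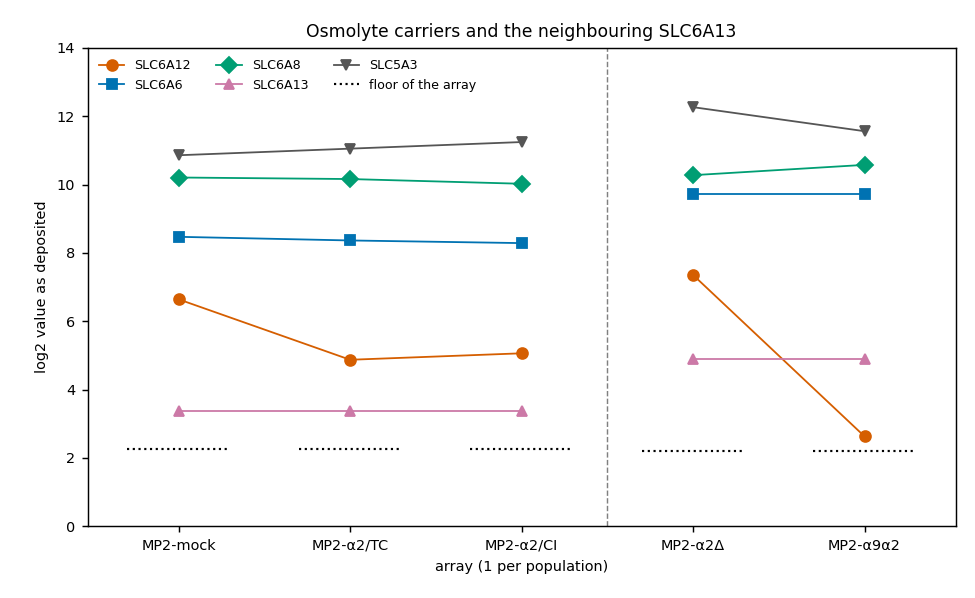
Log2 values as deposited (y axis) of the osmolyte carriers SLC6A12, SLC6A6, SLC6A8 and SLC5A3 and of the neighbouring SLC6A13 on each of the 5 arrays (x axis, 1 array per population), with the floor of each array dotted and the 2 normalization sets separated by a dashed line. SLC6A12 goes from 6.64 in mock to 4.87 and 5.06 in the α2 populations, and from 7.35 in α2Δ to 2.63 in α9α2, while SLC6A6 and SLC6A13 read the same on both arrays of the second set.

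Apart from SLC6A12, expression of α2 was accompanied by small differences in this group. Of 35 transporters above the floor on either array, SLC6A12 was the 1 at least 2-fold apart between α2/TC and mock, where 0.67% of all genes were. It was again the 1 of 35 between α2/CI and mock, against 0.65% of all genes. Between α2/CI and α2/TC 0 of 35 were 2-fold apart, against 0.19% of all genes. Among the 36 transporter probe sets over 4 on all arrays, 17 were lower and 6 higher in α2/TC than in mock (47.2% and 16.7%). Over all 19741 such probe sets the shares were 30.2% lower and 33.8% higher. For α2/CI over mock 18 were lower and 10 higher, against 32.6% and 37.5% of all. None of these probe sets differed by 2-fold, and probe sets of 1 gene are counted separately here.

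The neutral amino acid exchanger SLC1A4 read 6.69, 6.29 and 6.40 in the first set, and its other 2 probe sets over 4 read 7.36, 6.98 and 7.01, and 6.04, 5.67 and 5.80. By all 3 it was highest in mock. SLC38A7, a lysosomal carrier of glutamine and asparagine, read 8.70, 8.40 and 8.31, and its other 2 probe sets over 4 were also lower in both α2 populations, by 0.22 and 0.53, and by 0.23 and 0.26. SLC7A5, the light chain that carries large neutral amino acids, read 11.74, 11.74 and 11.36. Its heavy chain SLC3A2 read 9.28, 9.14 and 8.93 in the same order, so that both chains of the pair were lowest on collagenI. SLC1A5, the main glutamine exchanger, read 9.54, 9.54 and 9.29. In the other direction, SLC43A2, a carrier of large neutral amino acids, read 6.48 in mock and 6.85 in both α2 populations, although its second probe set was not higher in either. SLC38A4 read 5.25, 5.34 and 5.63. A dim probe set of SLC38A10 read 3.33 in mock and α2/CI and 2.41 in α2/TC cells, a log2 difference of -0.92 that its brighter probe sets did not share (0 and 0.06). Without replicates it is not known which of these differences exceed the spread between arrays of 1 population.

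Between α2Δ and α9α2 cells the differences were wider, and most transporters were lower in α2Δ. Of 37 above the floor on either array, 22 were lower in α2Δ, 5 higher and 10 identical, against 39.3%, 37.4% and 23.3% of all 12924 such genes. Of the 37, 5 were at least 2-fold lower in α2Δ, where 4.97% of all genes were, and 1 was at least 2-fold higher, where 10.1% of all genes were. The 5 were SLC1A1, SLC1A4, SLC38A1, SLC3A1 and SLC7A1, and the 1 was SLC6A12. At 1.5-fold, 12 were lower, against 14.2% of all genes, and still SLC6A12 alone was higher, against 18.3% of all genes. The 37 include genes that passed the floor on 1 array only. In the 36 probe sets over 4 on all arrays, which leave out SLC6A12, SLC1A1 and SLC3A1, 29 were lower and 4 higher (80.6% and 11.1%). Their median was -0.57. Over all 19741 such probe sets 47.0% were lower and 42.1% higher, with a median of 0. Of the 9 genes with several such probe sets, all probe sets were lower in α2Δ for 7 (SLC1A4, SLC38A1, SLC38A2, SLC38A10, SLC7A1, SLC7A6, SLC7A11), and they were mixed for SLC6A8 and SLC38A7. The same count was not made over all genes, so whether 7 of 9 is unusual is not known.

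**Figure D3:**
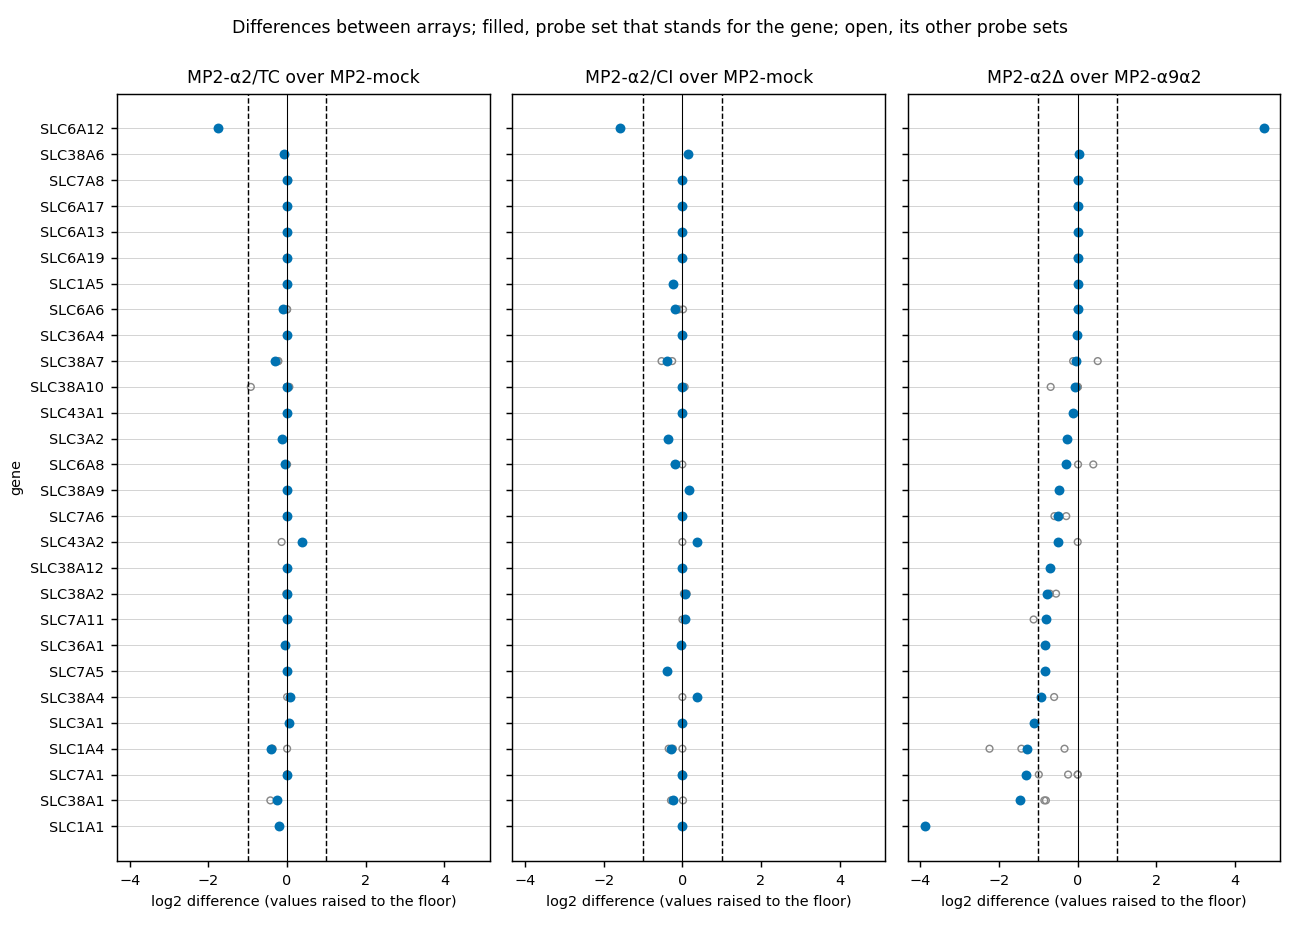
Log2 differences (x axis, values raised to the floor) for the 28 transporters over 4 on at least 1 array (y axis, ordered by α2Δ over α9α2), with filled points for the probe set that stands for the gene, open points for its other probe sets above the floor, and dashed lines at 2-fold. In the left and middle panels SLC6A12 alone passes the lines, at -1.77 and -1.58, and in the right panel most points lie to the left of 0, from -3.89 for SLC1A1, with SLC6A12 at 4.73.

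SLC1A1, the glutamate, aspartate and cysteine importer of many epithelial cells, read 2.61 in α2Δ and 6.50 in α9α2 cells, a log2 difference of -3.89 or 14.9-fold. In the first set it read 4.53, 4.31 and 4.53. The α2Δ value is near the floor, and by its second probe set SLC1A1 did not pass the floor on any of the 5 arrays. Of its neighbours, PLPP6 was also lower in α2Δ (8.44 against 9.46), CDC37L1 was higher (9.82 against 9.27), SPATA6L read 2.42 in both and GLIS3 was at the minimum. The other glutamate carriers SLC1A2, SLC1A3, SLC1A6 and SLC1A7 did not exceed 2.31 on any array.

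SLC1A4, which exchanges alanine, serine and cysteine, read 7.27 in α2Δ and 8.55 in α9α2 cells (log2 difference -1.28). Its other 2 probe sets over 4 gave -1.43 and -2.24. Its relative SLC1A5 read 10.05 on both arrays by its 1 probe set. That is 1 of the identical values, so whether the 2 exchangers of the family differed in behaviour is not read from it.

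The sodium-coupled importers of the plasma membrane, SLC38A1, SLC38A2 and SLC38A4, were lower in α2Δ by every probe set over 4 on both arrays. SLC38A1, a glutamine importer, read 11.66 against 13.12 in α9α2 (-1.46), and its other 2 such probe sets gave -0.81 and -0.85. SLC38A2, which is induced when amino acids are scarce, read 13.96 against 14.74, and its 3 probe sets gave -0.79, -0.71 and -0.55. SLC38A4, which also carries cationic amino acids, read 7.43 against 8.35 (-0.92). Of the members found on lysosomes, SLC38A9, an arginine sensor, read 9.57 against 10.04 (-0.47), and SLC38A7 read 8.89 against 8.94, with probe sets from -0.12 to 0.51. SLC38A6 read 10.55 and 10.53. SLC38A12, whose role is not listed here, read 6.07 against 6.77 (-0.70).

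Cationic amino acids enter chiefly through SLC7A1, which read 11.45 in α2Δ and 12.76 in α9α2 cells (-1.31) and 12.02 on each array of the first set. Of its other probe sets above the floor on both arrays, the one over 4 gave -0.99, and dimmer ones gave -0.24, 0 and 0. SLC7A2, an inducible carrier of arginine and lysine, read 2.58 against 3.57 (-0.99), both low. SLC7A3, SLC7A4 and SLC7A14 were at the minimum on all arrays.

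Among heavy chains, SLC3A2, the partner of most light chains, read 9.93 in α2Δ and 10.20 in α9α2 (-0.27). SLC3A1, the partner of the renal cystine carrier SLC7A9, read 4.61 against 5.71 (-1.10), while its other 2 probe sets lay at the floor. SLC7A9 itself read 2.24 on all 5 arrays. Of the light chains that pair with SLC3A2, SLC7A5 read 11.26 against 12.08 (-0.82) and SLC7A6, an exchanger of cationic for neutral amino acids, 9.62 against 10.12 (-0.50). SLC7A8, another large neutral amino acid exchanger, read 4.33 on both. SLC7A7 read 2.67 in α2Δ and the minimum elsewhere, and SLC7A10 did not exceed 2.24. SLC7A13, a light chain not counted here as a partner of SLC3A2, did not exceed 2.24 either. SLC7A11, which imports cystine in exchange for glutamate, read 6.70 against 7.51 (-0.80), and its second probe set 7.06 against 8.18 (-1.12). Thus 4 of these 8 light chains exceeded 4 on both arrays and 3 of the 4 were lower in α2Δ by every probe set over 4.

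Proton-coupled SLC36A1, found on lysosomes and the intestinal surface, read 8.21 in α2Δ and 9.03 in α9α2 cells (-0.82). SLC36A4, of the same family, read 8.90 and 8.91. SLC43A2 read 6.75 against 7.26 (-0.51) and SLC43A1 3.89 against 4.01. Of the SLC6 amino acid carriers, SLC6A17 and SLC6A19 read the same on both arrays.

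The differences rest unevenly on probe sets. Those that stand for SLC1A4, SLC38A1, SLC3A1 and SLC7A1 are marked in the array's nomenclature as matching several transcripts. Where such probe sets are left out, 2 transporters remain at least 2-fold apart between α2Δ and α9α2, SLC6A12 and SLC1A1. Where the median of all probe sets of a gene is taken instead, 3 remain, these and SLC1A4.

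The promoters of the group were searched for the C/EBP-ATF composite element, since ATF4 is known to act on several of these genes. The letters TGATGNAA were sought on both strands of the RefSeq promoters of assembly GRCh38.p14, each a window around a gene start, and 3.62% of 35116 promoters held them. Of the transporters 42 matched a promoter in that table, 64 promoters in all, and 6 genes held the letters in 1 promoter each. Counted by gene, 4.46% of all 27305 genes there held the letters. The 6 transporters include 3 of the 5 at least 2-fold lower in α2Δ, SLC1A4, SLC38A1 and SLC7A1. The others are SLC3A2 (-0.27), SLC1A5 (0) and SLC1A3 (0.10). The share with the letters among all genes at least 2-fold lower was not counted. The windows are shown 5′ to 3′ on the strand of the gene, with the element in capitals, to let the sites be compared.
SLC1A4 (chr2:64989366-64989425, + strand): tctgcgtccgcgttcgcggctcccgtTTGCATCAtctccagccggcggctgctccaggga
SLC7A1 (chr13:29595648-29595707, - strand): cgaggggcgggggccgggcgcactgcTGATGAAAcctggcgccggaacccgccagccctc
SLC38A1 (chr12:46266487-46266546, - strand): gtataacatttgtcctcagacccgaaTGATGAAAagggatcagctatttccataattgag
SLC1A5 (chr19:46784878-46784937, - strand): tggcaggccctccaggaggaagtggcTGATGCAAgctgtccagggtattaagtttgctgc
SLC3A2 (chr11:62881710-62881748, + strand): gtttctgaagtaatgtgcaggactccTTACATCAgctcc
SLC1A3 (chr5:36596342-36596401, + strand): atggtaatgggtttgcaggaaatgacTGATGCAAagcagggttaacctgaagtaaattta

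In SLC1A4 and SLC3A2 the element lies on the opposite strand and is therefore printed as its reverse complement. SLC7A1 and SLC38A1 share the same 8 letters, as do SLC1A5, SLC1A3 and, on the opposite strand, SLC1A4. Genes with the letters thus ran from a difference of -1.46 in SLC38A1 to 0.10 in SLC1A3, which was near the floor, and SLC1A1, with the larger difference of -3.89, holds none in its window. The letters TGGAAA, a core found in the elements of NFAT5, were sought in the same way. They stood in 13 of the 64 transporter promoters, against 20.7% of all promoters, and SLC6A12 was not among the genes matched to a promoter. A match is a description of the letters, and binding was not measured.

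Other genes of amino acid supply were read from lists of related genes. The aminoacyl-tRNA synthetases, which charge tRNAs and include known ATF4 targets, were the list that lay lowest in α2Δ. Of 17 measured, 14 were lower and 3 higher than in α9α2, against 39.3% and 37.4% of all genes. Their median was -0.68 where the median of all genes was 0. EPRS1 (11.29 against 12.43), CARS1 (11.23 against 12.32) and AARS1 (12.02 against 13.03) were at least 2-fold lower, against 4.97% of all genes. At 1.5-fold, 9 of 17 were lower, against 14.2% of all genes.

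The wider amino acid response list did not move as 1 group. Its 26 measured genes had a median of -0.12, with 3 at least 2-fold lower and 0 higher, against 4.97% and 10.1% of all genes. At 1.5-fold, 7 were lower and 5 higher, against 14.2% and 18.3% of all genes. The serine synthesis enzyme PHGDH read 8.67 in α2Δ against 10.63, the asparagine synthetase ASNS 11.50 against 12.92, and the tRNA exporter XPOT 12.42 against 13.49. ATF4 itself read 12.03 and 12.02. In the opposite direction and short of 2-fold, PYCR1, a proline enzyme, read 10.10 against 9.13, EIF4EBP1, a translation repressor, 10.03 against 9.06, and DDIT3, a stress transcription factor, 7.39 against 6.53.

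Enzymes of serine, glycine, glutamine, proline and asparagine metabolism lay on both sides, 12 lower and 11 higher of 24, with 5 at least 2-fold lower and 2 higher, against 4.97% and 10.1% of all genes. GLUL, which makes glutamine from glutamate, read 8.57 in α2Δ and 11.99 in α9α2 cells, a difference of -3.42. BCAT1, a branched-chain transaminase, gave -1.76 and the glutamate dehydrogenase GLUD1 gave -1.28. The arginase ARG2 (2.45) and the arginine synthesis enzyme ASS1 (2.19) were higher in α2Δ, whereas the arginine carrier SLC7A1 was lower there.

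Genes of amino acid sensing by the growth kinase complex mTORC1, parts of the complex such as MLST8 among them, lay on both sides. Of 31, 3 were at least 2-fold lower and 3 higher, against 4.97% and 10.1% of all genes, with a median of 0. SESN3, a sestrin, read 2.95 against 6.49 (-3.53), the SAM sensor SAMTOR gave -1.35 and TSC2, a brake on the complex, -1.24. CASTOR1, an arginine sensor, gave 1.42, LAMTOR3 gave 1.29, and MLST8 read 10.08 against 9.07. Among 15 genes of cystine and glutathione metabolism, GPX4 (1.31) was the 1 at least 2-fold apart, and SLC7A11 is a member of that list too. Among 17 amino acid and osmolyte carriers of other families, SLC2A13 (-1.12) was the 1, with a median of -0.01. Between either α2 population and mock, 0 genes of these lists other than SLC6A12 were 2-fold apart. Lists of unequal size are set beside all genes here only as a description.

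**Figure D4:**
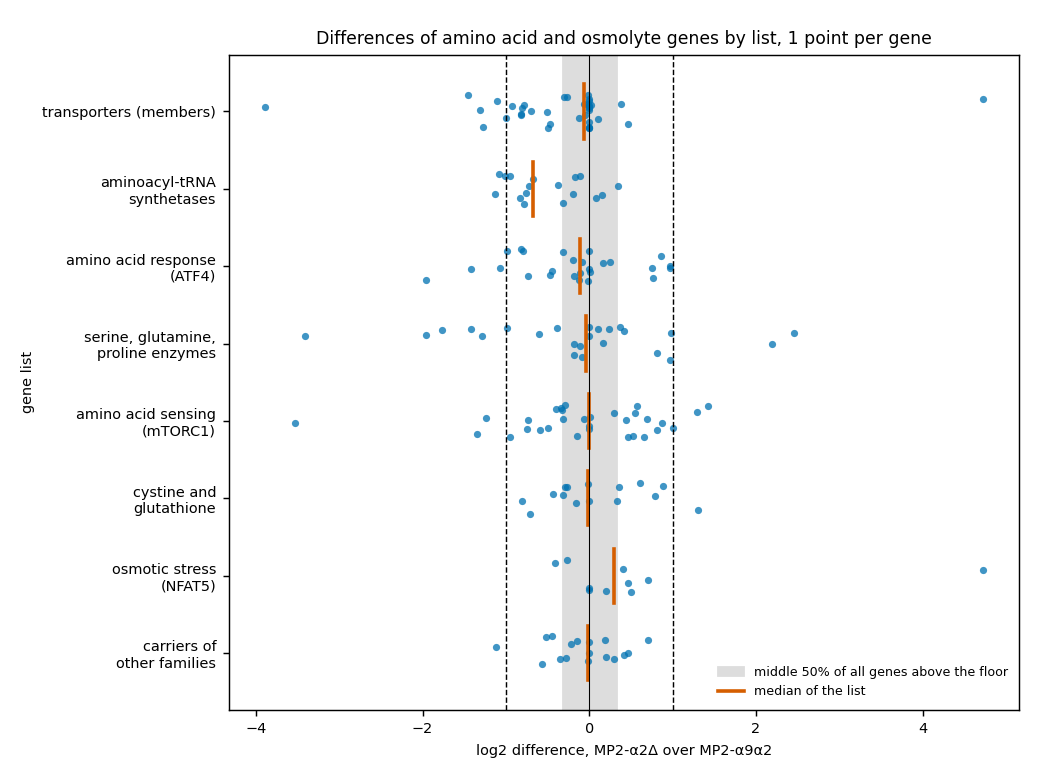
Log2 difference of α2Δ over α9α2 (x axis) for each gene above the floor on either array, by list (y axis), with 1 point per gene, the list median as a bar, the middle 50% of all genes shaded and dashed lines at 2-fold. The transporter median is -0.07 with a tail to the left and SLC6A12 far to the right at 4.73, and the synthetases have the lowest median, -0.68.

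Between mock and the second set, differences depend on the scaling, since values as deposited were higher in the second set by a median of 0.53 for α2Δ and 0.54 for α9α2. The sets also differed in the 3′ to 5′ control of ACTB, an indicator of RNA quality and labelling, which was -0.90 or lower on each array of the first set and 0.48 or higher on each of the second. The same control of GAPDH went the other way, at 0.20 on each array of the first set and -0.15 and -0.02 in the second. Their part in the result was not tested. After quantile normalization over all 5 arrays, 2 of 39 transporters were higher by at least 2-fold and 6 lower by as much in α2Δ than in mock, against 14.2% and 16.5% of all genes. In α9α2 6 of 36 were higher and 3 lower, against 17.5% and 20.1% of all genes. Of all genes 2-fold apart, the share that was higher moved from 81.4% as deposited to 46.2% after quantile normalization and 32.8% after centring for α2Δ, and from 74.2% to 46.6% and 36.5% for α9α2. For the transporters the counts as deposited were 6 higher and 2 lower of 39 in α2Δ, against 4052 and 928 of all 13421 genes. In α9α2 they were 12 higher and 2 lower of 36, against 4247 and 1474 of all 13407 genes. Centred, the transporter counts were 2 and 9 in α2Δ, against 1525 and 3122 of all genes. For α9α2 the centred counts were 5 and 6, against 1992 and 3462 of all genes.

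Under all 3 scalings SLC36A4 and SLC38A4 were at least 2-fold higher than mock in α2Δ, and SLC1A1 and SLC6A19, a neutral amino acid carrier of kidney and gut, were lower. Under all 3 scalings SLC36A4, SLC38A4, SLC1A1, SLC1A4 and SLC3A1 were higher in α9α2, and SLC6A12 and SLC6A19 were lower. Several of these calls rest on dim values or on 1 probe set. With a floor at 4, SLC6A19 went from -1.55 to -0.42 and SLC1A1 from -2.27 to -0.83 in α2Δ, and with the median of all probe sets SLC6A19 went to -0.27 and SLC36A4 from 1.10 to 0.72. By that median SLC1A1, SLC1A4 and SLC36A4 were 0.59, 0.70 and 0.75 higher in α9α2, short of 2-fold. SLC36A4 read 8.90 and 8.91 in the second set, with quantile-normalized differences of 1.10 and 1.11 from mock. SLC38A4 gave 1.30 in α2Δ and 2.26 in α9α2. SLC1A1 lay on opposite sides of mock, at -2.27 in α2Δ and 1.19 in α9α2. SLC6A12 gave -0.15 in α2Δ, where the value as deposited was 0.71, and -4.39 in α9α2. Both comparisons share the mock array, and in every difference from mock a part due to the sets cannot be told apart. SLC36A4 and SLC6A19 read alike on both arrays of the second set, and SLC38A4 and SLC3A1 were above mock on both.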

How the data were processed

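From each of 5 Affymetrix arrays, 1 per population, the authors deposited values that are already normalized, read here as log2 from their range. GCRMA and MAS5 stand in the submitters' processing notes, with neither role nor version. Normalization can shift all values of a set of arrays, and the 2 sets were taken from the minimum each array shared. Of 54675 probe sets, 62 controls were left out, and 41091 of the others had 1 gene symbol, 1801 several and 11721 none. Symbols came from the platform annotation, updated through a RefSeq table of GRCh38.p14.

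Values were raised to the floor of their array, percentile 95 of 107 probe sets for odorant receptors, and differences were taken for 6 pairs of arrays, 4 within a set and 2 across sets after quantile normalization. Genes at least 2-fold apart were counted among those above the floor on either array, with pandas 2.3.3 and numpy 2.4.6 in Python 3.11.15. The counting was run on a copy of the mock array with known shifts and no noise added. That run checks the counting step alone, and does not bear on noise, identical values or the normalization sets. With 1 array per population no test was possible, and the precision of a difference was not measured. Signal over the floor gives the distance from background alone.

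The members, gene lists and alternatives were chosen with earlier results of these data known. Genes named are those at least 2-fold apart by any probe set or near that limit, their heavy or light chain partners, members that complete a role, and up to 6 genes of each list with the largest differences. Other genes named, such as NFAT5, PYCR1 and ATF4, the chromosomal neighbours, and members with smaller differences were named after their values were seen.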

Additional observations from a re-analysis of the deposited data

How the results depend on the processing

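SLC6A12 was the transporter at least 2-fold apart in both comparisons of full-length α2 with mock under every floor and scaling tried (it has 1 probe set, so the probe set rules leave its value as it is), and at 3-fold the count for α2/CI was 0. Of 6 transporters 2-fold apart between α2Δ and α9α2, 3 remained with the median of all probe sets, 2 without probe sets that match several transcripts and 2 at 3-fold, against 13 at 1.5-fold. For α2Δ over mock the count of 8 became 5, 5, 1 and 17 in the same order. For α9α2 over mock the count of 9 became 14 with values as deposited, 4 with the median of all probe sets, 3 at 3-fold and 16 at 1.5-fold. Of differences from mock, SLC38A1 in α2Δ changed sign without probe sets that match several transcripts, to 0.88 (from -1.23), and SLC7A1 in α2Δ with the median of all probe sets, to 0.0042 (from -1.12). In α9α2 the value became -0.0095 for SLC1A4 and SLC3A1 under the first rule and for SLC3A1 and SLC7A2 under the second. This is the difference of the floors of both arrays, so it is no measured change of sign. In all, 115 alternative values of single transporters kept their direction and their side of 2-fold, and 28 no longer reached 2-fold, among them values of 0 where no probe set above the floor was left. Except where a rule itself replaces the probe set, the cause was not tested. Differences of probe sets near the floor, such as SLC6A12 in α9α2 and SLC1A1 in α2Δ cells, are limited by signal over background.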
